A study of Mus musculus with 2 samples.

Results

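This account covers 9 mouse genes of the actin cytoskeleton: the thymosins Tmsb4x and Tmsb10, the cytoplasmic actins Actb and Actg1, the actin-binding genes Pfn1, Cfl1, Arpc2 and Arpc3, and the intermediate filament gene Vim. They were taken by symbol from the 53465 genes of the table, and each symbol had 1 row. Tmsb4x was chosen by its FPKM, which was higher in the NeuroD1 library than in the GFP library, so its difference is a description of that choice. The samples were endothelial cells, the cells that line blood vessels, isolated from C57Bl/6 mice of the tie2-cre genotype, in which the Tie2 promoter of endothelial and blood cells drives Cre recombinase. One group was treated with GFP, a fluorescent protein used as the control, and the other with NeuroD1, a transcription factor of neuronal differentiation. Both groups shared strain and genotype, cells of 3 mice were collected, and each group had 1 library. The vector, the dose, the time after treatment, the age of the mice and any injury to the animals are not given in the sources used here, and neither is whether the cells of the 3 mice were pooled or divided between the libraries.

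Actin exists as single molecules and as filaments, and cells move, spread and hold their junctions by shifting it between these states. Thymosins hold single actin molecules in reserve, profilin hands them to growing filament ends, cofilin cuts old filaments, and the Arp2/3 complex starts new branches. Vimentin forms a separate set of filaments that is abundant in endothelial cells and other cells of mesenchymal origin.

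Values are FPKM (fragments per length of exon and per nominal size of library) and are given with the whole reads recovered from them. The library sizes that these FPKM imply were 2.21e+06 (GFP) and 1.95e+06 (NeuroD1), while recovered reads came to 2.01e+06 and 2.00e+06. The divisor in NeuroD1 was thus not its plain number of reads. At a given exon length, 1 read was worth 1.13 times as much FPKM in NeuroD1 as in GFP. After 19 genes above 1000 FPKM, which took 52.3% of the reads in GFP and 57.4% in NeuroD1, 958883 and 852049 reads were left for the other genes. Neurod1 itself had 4 reads with GFP treatment and 970 with NeuroD1 treatment. Markers of endothelium were found in both: the junctional adhesion receptor Pecam1 had 12.4 FPKM in the GFP and 14.4 FPKM in the NeuroD1 library, and the claudin Cldn5 at 33.9 and 31.5 FPKM. Because each group is a single library, nothing here has a replicate check, no test was possible and no p-value is given. The 95% intervals cover counting error only.

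The coding sequences of the closest relatives among these genes were compared, which bears only on reads that lie in them. Tmsb4x (GRCm38 chromosome X, 167207093 to 167209315, minus strand) and Tmsb10 (chromosome 6, 72957347 to 72958748, minus strand) encode peptides of 44 amino acids each. Their coding sequences in GENCODE M21, from the start to the stop codon, are printed with the bases that differ between them in capitals.
Tmsb4x: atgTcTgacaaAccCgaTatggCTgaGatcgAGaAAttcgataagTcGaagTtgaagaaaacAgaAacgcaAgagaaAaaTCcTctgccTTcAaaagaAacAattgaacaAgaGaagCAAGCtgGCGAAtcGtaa
Tmsb10: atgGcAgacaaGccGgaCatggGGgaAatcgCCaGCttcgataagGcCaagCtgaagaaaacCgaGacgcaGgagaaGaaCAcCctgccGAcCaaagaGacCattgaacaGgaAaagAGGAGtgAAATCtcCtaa
The pair differed at 40 of 135 bases (70.4% identical), and 25 of the 40 lay at the third base of a codon. The longest run without a difference was 10 bases.

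Actb (chromosome 5, 142903115 to 142906754, minus strand) and Actg1 (chromosome 11, 120345690 to 120348542, minus strand) encode the actins of non-muscle cells. Their coding sequences of 1128 bases were 88.7% identical. The first 90 bases, which hold the codons at the amino end where the proteins are known to differ, are printed with the differing bases in capitals.
Actb: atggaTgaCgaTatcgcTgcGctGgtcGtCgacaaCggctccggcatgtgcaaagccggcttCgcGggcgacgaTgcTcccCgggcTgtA
Actg1: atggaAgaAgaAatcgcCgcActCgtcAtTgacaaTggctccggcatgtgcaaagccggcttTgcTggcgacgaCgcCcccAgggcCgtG
Of the 128 differing bases over the whole coding sequence, 120 lay at the third base of a codon, 8 at the first base and 0 at the second. The longest identical run was 62 bases. A read that lies wholly inside such a run could come from either actin. The untranslated parts were not compared, and the sources used here do not state the read length.

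Tmsb4x, the main thymosin of most tissues, stood at 17.8 FPKM (54 reads, counting interval 13.4 to 23.3 FPKM) in the GFP library and 41.1 FPKM (110 reads, 33.8 to 49.6 FPKM) in the NeuroD1 library. The counting intervals of the 2 libraries did not overlap. The ratio of FPKM was 2.31 (interval 1.65 to 3.26), and the difference of log2(FPKM + 1), NeuroD1 minus GFP, was 1.16. Genes were counted as 2-fold higher or lower at a difference of at least 1 on this log2 scale with at least 5 FPKM in one library or both. Of the 9 genes, all of which passed the FPKM minimum, Tmsb4x alone was 2-fold higher and none was lower. Of 6408 protein-coding genes past the minimum, 3.25% were higher and 3.31% lower. Since Tmsb4x was chosen for its value in this comparison, nothing is read from that count. By its difference it ranked 142 of the 6408. Among 310 protein-coding genes with a mean FPKM within 2-fold of its own, 7 had a larger difference. These genes are matched on FPKM and not on reads, so some are short and rest on few reads. Among the 7, Gm11037 (1 and 5 reads) and Gm17622 (2 and 6 reads) had intervals that include 1. Erdr1 (31 and 70 reads) had one above 1. Gm11037 and Gm17622 were named after their values were seen.

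The other thymosin, Tmsb10, had 23 reads (8.16 FPKM, interval 5.17 to 12.2) in GFP and 35 reads (14.1 FPKM, 9.80 to 19.6) in NeuroD1. Its intervals overlapped, and its ratio of 1.72 had an interval of 0.990 to 3.06, which includes 1. The thymosins together had 77 and 145 reads (ratio 2.13, interval 1.61 to 2.85), a sum that rests mainly on Tmsb4x. Tmsb4x made up 70.1% of thymosin reads in GFP and 75.9% in NeuroD1. The ratio of Tmsb4x to Tmsb10 reads was 1.34 times as high in NeuroD1 (interval 0.683 to 2.59), so these reads do not separate the changes of the pair.

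**Figure D1:**
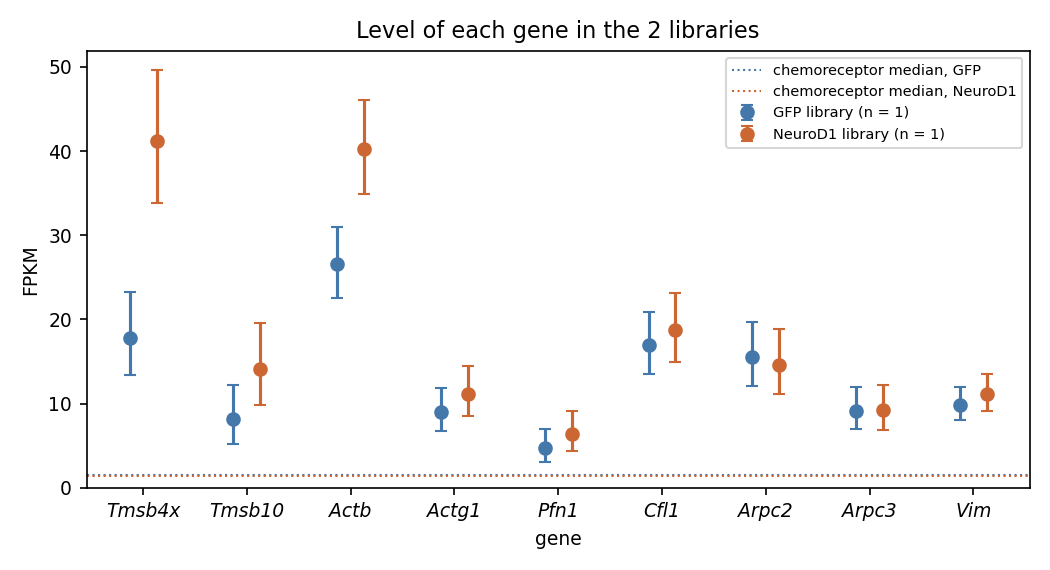
FPKM (vertical axis, linear) of the 9 genes (horizontal axis) in the GFP library and the NeuroD1 library, with exact Poisson 95% counting intervals as bars and the chemoreceptor median of each library as a dotted line. Tmsb4x and Actb are the pair whose bars do not overlap between libraries, and all 9 genes lie above the dotted lines.

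Actb was the highest of the 9 genes in the GFP library, at 26.5 FPKM (157 reads, interval 22.5 to 31.02), and stood at 40.2 FPKM (210 reads, 34.9 to 46.01) in NeuroD1. Its intervals did not overlap either, and the ratio was 1.52 (interval 1.23 to 1.88). On the log2 scale its difference of 0.58 was below the 2-fold threshold. Actg1 stood at 9.03 FPKM (53 reads) and 11.2 FPKM (58 reads), with overlapping intervals and a ratio of 1.24 (interval 0.839 to 1.83). Actb took 74.8% of the reads of these 2 actins in GFP and 78.4% in NeuroD1, and the interval of that change, as a ratio of ratios, ran from 0.779 to 1.91.

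Pfn1, profilin, was the lowest of the 9 genes in both libraries, at 4.71 FPKM (25 reads) in GFP and 6.40 FPKM (30 reads) in NeuroD1. Its ratio of 1.36 had an interval of 0.773 to 2.41. Cfl1, the cofilin of non-muscle cells, stood at 16.9 FPKM (88 reads) and 18.7 FPKM (86 reads), a ratio of 1.11 (interval 0.813 to 1.51). Both intervals included 1. Pfn1 lies on chromosome 11, 70651850 to 70654644, minus strand, and Cfl1 on chromosome 19, 5490455 to 5495201, plus strand.

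Arpc2 and Arpc3 encode subunits of the Arp2/3 complex, and Arpc2 belongs to the pair of subunits that hold the mother filament. Arpc2 (chromosome 1, 74236084 to 74268209, plus strand) stood at 15.6 FPKM (70 reads) in GFP and 14.6 FPKM (58 reads) in NeuroD1. With the FPKM as deposited it was the only one of the 9 genes with a lower value in NeuroD1, with a ratio of 0.938 (interval 0.651 to 1.35). Arpc3 (chromosome 5, 122391878 to 122414184, plus strand) stood at 9.18 FPKM (56 reads) and 9.28 FPKM (50 reads), a ratio of 1.01 (interval 0.677 to 1.51). Vim (chromosome 2, 13573927 to 13582826, plus strand) had 103 reads in each library, which is 9.83 and 11.1 FPKM, a ratio of 1.13 (interval 0.854 to 1.50). The counting intervals of each of these 3 genes overlapped between the libraries.

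**Figure D2:**
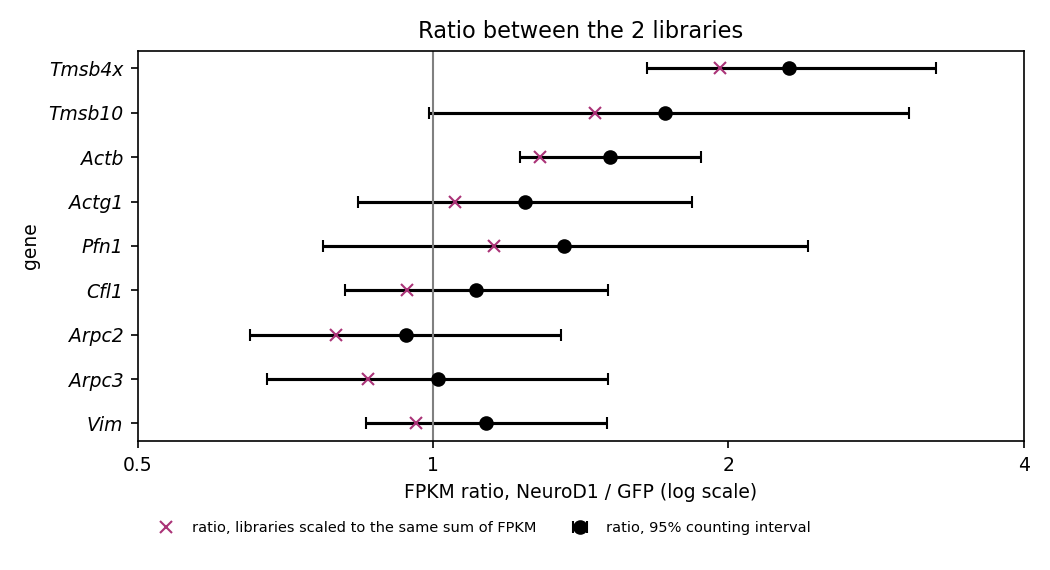
Ratio of FPKM, NeuroD1 over GFP (horizontal axis, log scale), for each of the 9 genes, with exact Clopper-Pearson 95% counting intervals as bars and the same ratio after the columns were brought to an equal FPKM sum as crosses. Intervals lie above 1 for Tmsb4x (1.65 to 3.26) and Actb (1.23 to 1.88) and include 1 for the other 7 genes.

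Intervals above 1 were thus found for 2 of the 9 genes and below 1 for none. Among 14792 protein-coding genes with at least 20 reads over both libraries, 5.93% had an interval above 1 and 6.22% one below it. Among those within the range of mean FPKM that the 9 genes span, 10.5% lay above 1. One of the 2 is the gene chosen for its difference, which leaves Actb among the 8 others.

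In all, 8 of the 9 genes had a difference above 0 with the FPKM as deposited, and 5 of the 9 when the libraries were brought to an equal sum of FPKM. The median as deposited was 0.28 on the log2(FPKM + 1) scale. Without Tmsb4x, 7 of the 8 others were above 0, with a median of 0.22. Among the 6408 protein-coding genes past the minimum, 54.1% were above 0 and the median was 0.04. The share above 0 grew with level: for mean FPKM of 5 to 10 it was 53.9%, for 10 to 20 it was 65.2% and for 20 to 50 it was 85.2%, with medians of 0.03, 0.12 and 0.23. Tmsb4x and Actb fall in the last of these classes. Set against the median of genes within 2-fold of its own mean FPKM, Tmsb4x was 0.96 higher, Tmsb10 0.67, Pfn1 0.38, Actb 0.36, Actg1 0.24 and Vim 0.12. By the same measure Cfl1 stood at -0.003, Arpc3 at -0.02 and Arpc2 at -0.20. On this measure Tmsb4x no longer reached the threshold of 1. Of the genes as abundant as Actb, 81.7% were above 0, and 24 of 246 had a larger difference.

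**Figure D3:**
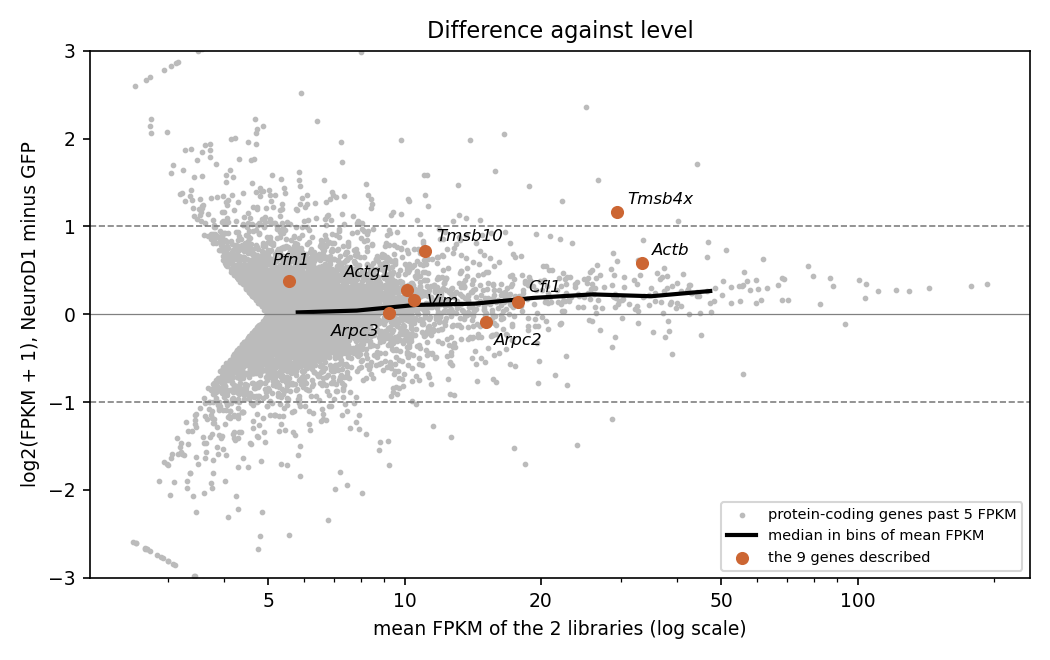
Difference of log2(FPKM + 1), NeuroD1 minus GFP (vertical axis), against the mean FPKM of the libraries (horizontal axis, log scale) for protein-coding genes past 5 FPKM (grey), with the median in bins of mean FPKM from 5 FPKM up (line), the threshold of 1 in each direction (dashed) and the 9 genes (orange); 37 of 6408 genes lie outside the axes. Tmsb4x, at 1.16, is above the upper dashed line, Actb and Tmsb10 are above the line of medians, and Cfl1 and Arpc3 lie on it.

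The difference of Tmsb4x from the other genes of the group does not depend on how the libraries are scaled to each other. Tmsb4x had 54 reads against 575 of the 8 others in GFP, or 8.59% of all 9, and 110 against 630 in NeuroD1, or 14.9%. The ratio of these read ratios was 1.86 (interval 1.30 to 2.68). Against Actb alone it was 1.52 (interval 1.02 to 2.29). These contrasts follow from the choice of Tmsb4x and are given as a description.

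Scaling bears on the size of the differences. With the FPKM of each library brought to an equal sum, the median of protein-coding genes past the minimum moved from 0.04 to -0.22. The Tmsb4x difference was then 0.93, below the threshold, and Cfl1, Arpc2, Arpc3 and Vim fell on the other side of 0 from Tmsb4x. The ratio of Tmsb4x was 1.96 (interval 1.40 to 2.77) and that of Actb 1.29 (interval 1.04 to 1.59), so both intervals still lay above 1. With their reads summed, the 8 others had a ratio of 1.24 (interval 1.11 to 1.39) with the FPKM as deposited and 1.05 (interval 0.939 to 1.18) with equal sums, which includes 1. Protein-coding genes counted as 2-fold higher and lower were 208 and 212 at first and 105 and 331 under that scaling. The predicted gene Gm10800 took 37.7% of the recovered reads in GFP and 41.9% in NeuroD1. Its share of the FPKM sum was not computed. Without those 19 genes above 1000 FPKM, the same scaling gave values close to the first: the Tmsb4x difference was 1.17 and 8 of the 9 genes were above 0. With equal sums of recovered reads in place of FPKM, it was 0.99 and 6 genes were above 0.

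By level per length, the order in the GFP library was Actb, Tmsb4x, Cfl1, Arpc2, Vim, Arpc3, Actg1, Tmsb10 and Pfn1. Actb exceeded Tmsb4x by a ratio of FPKM of 1.49 (interval 1.09 to 2.07), and Arpc2 exceeded Vim by 1.59 (interval 1.15 to 2.17). For the other neighbours in this order the interval included 1. In the NeuroD1 library the order was Tmsb4x, Actb, Cfl1, Arpc2, Tmsb10, Actg1, Vim, Arpc3 and Pfn1. The interval for Tmsb4x over Actb included 1 there (ratio 1.02, interval 0.805 to 1.30), while Actb exceeded Cfl1 by a ratio of 2.15 (interval 1.66 to 2.79). The step from Actb down to Cfl1 was the only one between neighbours in NeuroD1 whose interval excluded 1. Tmsb10 moved from position 8 in GFP to position 5 in NeuroD1, but neither position is separated from its neighbours.

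Both libraries held reads in chemoreceptor genes, which serve smell and taste and are not known to be used by endothelial cells. Their median level was 1.54 FPKM (GFP) and 1.40 FPKM (NeuroD1), and their 95th percentile was 4.39 and 4.79 FPKM. All 9 genes lay above that percentile in both libraries. The counting intervals of Pfn1, 3.05 to 6.95 FPKM in GFP and 4.32 to 9.13 FPKM in NeuroD1, included it, so Pfn1 is not separated from it. Tmsb4x stood at 11.6 and 29.3 times the chemoreceptor median, and Actb at 17.2 and 28.6 times. Pfn1 was nearest to it, at 3.05 and 4.55 times. Background at this median would give Pfn1, at its exon length, 8.20 reads in GFP and 6.59 in NeuroD1, against the 25 and 30 found.

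Actins and cofilin have processed pseudogenes, copies of their messenger RNA in the genome, and the sources used here do not say how reads that fit several places were counted. Annotated transcripts at least 95% identical to a protein-coding transcript of one of the 9 genes over at least 200 bases were searched for. None was found for Tmsb4x, Pfn1, Arpc3 and Vim. Actg1 had 6 such pseudogenes in the table, and these held 56 reads in GFP and 65 in NeuroD1, more than the 53 and 58 of Actg1 itself. The largest of them, Gm12715, held 38 and 34 reads. With its 6 copies, Actg1 came to 109 and 123 reads, a ratio of 1.28 (interval 0.980 to 1.67). The level of Actg1 is therefore uncertain, while its ratio was 1.24 alone and 1.28 with the copies.

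Cfl1 had 1 pseudogene, Gm6180, with recovered reads. It held 6 reads in GFP and 21 in NeuroD1 (ratio 3.96, interval 1.55 to 12.005), whereas Cfl1 had 88 and 86. With the copy, Cfl1 came to 94 and 107 reads, a ratio of 1.29 (interval 0.968 to 1.72). Snx32, a neighbouring gene that shares 354 identical bases with Cfl1, had no recovered reads in either library and stood at 6.58 and 4.66 FPKM. Tmsb10 had 1 copy, the predicted gene Gm9844, with 12 reads in each library, and with it a ratio of 1.52 (interval 0.961 to 2.43). Actb had 1 pseudogene, Gm15725, listed at 0 in both libraries. Arpc2 had a single match, which has no row in the table. These copies are outside the rule for named genes and were named after their values were seen.

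The genes with the difference nearest to that of Tmsb4x, among those within 2-fold of its mean FPKM, were Gm21887, Erdr1 and Rpl9-ps6. Likeness is the gap between log2 differences over 2 libraries, which is a weak measure. Gm21887 stood at 25.6 and 54.7 FPKM (gap 0.10), Erdr1 at 12.5 and 31.9 FPKM (gap 0.13) and Rpl9-ps6 at 11.1 and 22.3 FPKM (gap 0.22).

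Promoters of 8 of the 9 genes matched the RefSeq table for GRCm38.p6, all but that of Actb, with 10 start sites in all. Each promoter runs from 250 bases before to 50 after the start. The CArG box, the site of serum response factor (SRF), a regulator of many actin genes, was found in the promoter of Actg1 and of no other of the 8, and in 1.63% of all 32851 promoters on either strand. The stretch of the Actg1 promoter at chr11:120348556-120348635, minus strand, is printed because it holds that match, in capitals, which begins 90 bases before the start.
Actg1: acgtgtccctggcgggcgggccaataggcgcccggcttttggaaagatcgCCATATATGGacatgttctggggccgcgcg
The same stretch holds the hexamer GGGCGG, found on either strand in promoters of 7 of the 8 genes and in 35.7% of all promoters. TATAAA, searched on the gene's strand only, was found for Vim alone and in 8.32% of all promoters. The E-box hexamers CAGATG and CAGCTG, forms of the CANNTG site of basic helix-loop-helix factors such as NeuroD1, were searched on both strands. They were in none of the 10 member promoters and in 17.2% and 16.3% of all promoters. A match is a string of letters and not a shown site.

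The 9 genes were then set among 144 measured genes of 8 lists that cover actin monomers and their binders, severing, nucleation, capping and bundling, myosin and membrane linkers, intermediate filaments and the SRF axis. A gene counted as measured at 1 FPKM or more in one library or both. Of the 144, 78 were above 0 (54.2%), with a median of 0.02. Of all measured protein-coding genes, 48.4% were above 0, with a median of -0.02. The 144 are not matched to these genes in level, with which the share above 0 grew, and they include the 9 genes. Past 5 FPKM and without the 9, 53.7% of 82 list genes were above 0, with a median of 0.04. The same values for all protein-coding genes past 5 FPKM were 54.1% and 0.04. The counts of the single lists are to be read against both baselines. With this minimum of 1 FPKM, the 2-fold count was 3 higher and 2 lower, or 2.08% and 1.39%, against 2.62% and 3.84% of all measured protein-coding genes. Of the 91 list genes past the minimum of 5 FPKM, 3 were higher (3.30%) and 0 lower. The shares of all protein-coding genes past 5 FPKM were 3.25% and 3.31%. Of the 126 list genes that reached 20 reads, 9 had an interval above 1 (7.14%) and 6 one below it (4.76%), near the 5.93% and 6.22% of all protein-coding genes. Without the 9 genes described, 7 of 117 lay above 1 and 6 below it.

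**Figure D4:**
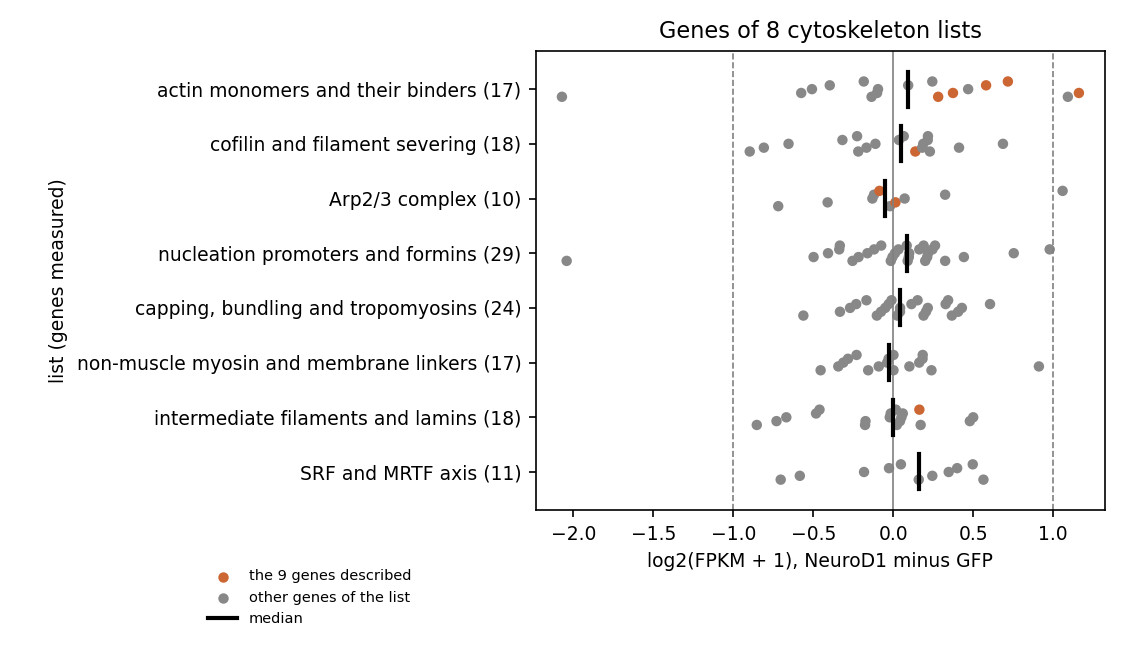
Difference of log2(FPKM + 1), NeuroD1 minus GFP (horizontal axis), of each measured gene in 8 cytoskeleton lists (rows, with the number measured), with the 9 genes described in orange, the other genes in grey, the list median as a bar and the threshold of 1 as dashed lines. With the FPKM as deposited, list medians lie between -0.05 and 0.16 (all 8 are below 0 with equal sums of FPKM), and 5 of the orange points are in the list of actin monomers and their binders.

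Among actin monomers and their binders, 9 of 17 measured genes were above 0 and the median was 0.09. Without the 5 genes described here, 4 of 12 were above 0 and the median was -0.12. Twf1, twinfilin, which binds actin monomers, had 15 and 35 reads (2.22 and 5.88 FPKM, ratio 2.64, interval 1.41 to 5.21) and was 2-fold higher. With the minimum of 1 FPKM, the thymosin Tmsb15a was 2-fold lower with 4 and 0 reads, and the upper limit of its ratio was 1.72. Cap1, a cyclase-associated monomer binder named after its values were seen, had 53 and 42 reads (interval 0.584 to 1.37). Tmsb15a was also named after its values were seen.

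In the list of cofilin and filament severing, 10 of 18 were above 0, with a median of 0.05 and none past the threshold. Cfl2, the cofilin of muscle, had 24 and 38 reads (ratio 1.79, interval 1.05 to 3.13). Dstn, the related actin-depolymerizing factor, had 25 and 11 reads (ratio 0.498, interval 0.221 to 1.05). The phosphatase Ssh1, which activates cofilin, had 196 and 182 reads (ratio 1.05, interval 0.855 to 1.30).

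The Arp2/3 complex was measured in full, with 4 of 10 genes above 0 and a median of -0.05. Arpc5 had 24 and 49 reads (4.77 and 11.04 FPKM, ratio 2.31, interval 1.39 to 3.94) and was 2-fold higher. Arpc1a had 54 and 27 reads (9.52 and 5.39 FPKM, ratio 0.566, interval 0.343 to 0.915). The ratios of Arpc2 and Arpc3 lay between them. Of the 10 genes, 1 had an interval above 1 and 1 below it, and 8 included 1.

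Among nucleation promoters and formins, 17 of 29 were above 0, with a median of 0.08. The formins Inf2, with 50 and 81 reads (ratio 1.83, interval 1.27 to 2.67), and Fmnl1, with 83 and 103 reads (ratio 1.41, interval 1.04 to 1.90), had intervals above 1. Diaph1, another formin, had 106 and 100 reads (ratio 1.07), and Brk1, a subunit of the WAVE complex, had 8 and 16 reads (interval 0.915 to 6.11). With the minimum of 1 FPKM, Wasf1, which encodes a WAVE protein of brain, was the single gene 2-fold lower in this list. Its reads were 29 and 2 (ratio 0.0781, interval 0.00903 to 0.309). It was named after its values were seen.

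Capping, bundling and tropomyosin genes had 14 of 24 above 0, with a median of 0.04 and none past the threshold. Capg, a capping protein, had 63 and 49 reads, Tpm4, a tropomyosin, 50 and 52, and Tagln2, a transgelin, 49 and 28 reads (ratio 0.647, interval 0.392 to 1.05). Cnn3, a calponin, had 23 and 34 reads (interval 0.958 to 2.98). Non-muscle myosin and linker genes had 8 of 17 above 0 and a median of -0.03. The myosin light chain Myl12b had 13.2 FPKM (GFP) and 25.8 FPKM (NeuroD1), for which no reads were recovered, while the heavy chain Myh10 had 265 and 229 reads (ratio 0.979). Zyx, a focal adhesion protein, had 68 and 41 reads (ratio 0.683, interval 0.452 to 1.02).

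Intermediate filament and lamin genes had 9 of 18 above 0 and a median of 0.001. Beside Vim, Nes, nestin, had 114 and 99 reads (ratio 0.984), Gfap, the astrocyte filament, 48 and 28 reads (ratio 0.661, interval 0.399 to 1.07), and the keratin Krt18 had 8.08 FPKM (GFP) and 4.03 FPKM (NeuroD1). In the SRF axis 7 of 11 were above 0, with a median of 0.16. The kinase Rock2, which acts on myosin, had 333 and 305 reads (ratio 1.04), and the related Rock1 stood at 6.59 and 4.06 FPKM. Of the 9 genes of this list with at least 20 reads, 1 had an interval above 1 and 1 below it.

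Thymosins and actins are also abundant in blood cells and microglia, so marker lists of other cell types were set beside these values. The 16 endothelial markers had a summed level of 246 FPKM in GFP and 276 FPKM in NeuroD1, with 11 above 0. Microglia and macrophage markers summed to 66.6 and 56.8 FPKM, with 3 of 15 above 0. Aif1 stood at 6.50 and 6.36 FPKM and Tyrobp at 11.5 and 17.7 FPKM. Platelet markers summed to 43.5 and 35.4 FPKM, with 3 of 12 above 0. Ppbp had 5 and 2 reads (interval 0.043 to 2.77) and Pf4 9 and 3 reads (interval 0.066 to 1.51), so both include 1. Of the 8 platelet markers with at least 20 reads, 1 had an interval above 1 and 1 below it. They were F2rl2, with 8 and 20 reads (interval 1.19 to 7.43), and Gp1ba, with 57 and 25 (interval 0.297 to 0.808), both named after their values were seen. The median level of the microglia markers was 4.17 FPKM (GFP) and 2.69 FPKM (NeuroD1) and that of the platelet markers 2.15 and 2.35 FPKM. The chemoreceptor medians were 1.54 and 1.40 FPKM. The microglia and platelet medians lay below the chemoreceptor 95th percentile of 4.39 FPKM (GFP) and 4.79 FPKM (NeuroD1). So did those of T and NK cell markers, at 2.65 and 2.83 FPKM. Neutrophil markers had medians of 6.15 and 4.25 FPKM and erythroid markers of 5.65 and 4.01 FPKM, above that percentile in GFP and below it in NeuroD1. The endothelial markers had medians of 11.1 and 11.5 FPKM.

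Neutrophil markers summed to 75.9 and 78.1 FPKM (5 of 10 above 0), and T and NK cell markers to 48.8 and 64.5 FPKM (4 of 8). Fibroblast markers summed to 43.4 and 61.1 FPKM (4 of 10), and mural cell markers to 47.2 and 43.9 FPKM (3 of 11). Of these mural markers Rgs5 had 35 and 22 reads and the smooth muscle actin Acta2 stood at 7.63 and 10.9 FPKM. Neuron markers summed to 61.5 and 71.7 FPKM (7 of 12), with Stmn2 at 39 and 30 reads. Of the neuron sum, Rbfox3, named after its values were seen, held 26.8 FPKM (344 reads) in GFP and 31.0 FPKM (352 reads) in NeuroD1. Astrocyte markers summed to 27.2 and 25.5 FPKM (4 of 9), oligodendrocyte markers to 29.4 and 32.3 FPKM (7 of 9) and erythroid markers to 47.2 and 33.5 FPKM (3 of 7). Gzmb, in GFP, was the only marker listed at 0. With the FPKM of each library brought to an equal sum, the endothelial sum was 234 FPKM in NeuroD1 against 246 in GFP. The fibroblast and T and NK cell sums were then the only ones of the 11 that were higher in NeuroD1. With that scaling, 4 of 10 fibroblast markers and 3 of 8 T and NK cell markers were above 0, so most markers of either list did not rise. Of the T and NK cell sum as deposited, Gzma held 25.6 FPKM (57 reads) in GFP and 39.8 FPKM (78 reads) in NeuroD1. The fibroblast markers above 0 were Ptgds, Fbln1, Mfap5 and Igfbp6. These genes were picked with their levels already known. The part of any of these cell types in the Tmsb4x difference was not tested. In bulk samples, fewer cells of a type and less RNA per cell cannot be told apart.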

How the data were processed

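The authors deposited FPKM of 53465 mouse genes in 1 table with a column for each library. The build GRCm38 and the tools Bowtie2 2.3.5.1, featureCounts 1.6.3 and DESeq are listed in the submitters' processing notes, with no role or order. Per the labels' protocols, 10000 cells were lysed and reverse transcribed with DRUG-seq primers. If reads lie near transcript ends, division by exon length lowers long genes against short ones.

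Multiplied by merged exon length (GENCODE M21), FPKM came in whole steps, the worth of 1 read. This returned whole reads, within 0.02, for 51162 genes (95.7%) in both libraries. For Cfl1 the length of its longest annotated transcript, 2354 bases, was used, since its merged length gave none. Ratios have exact Clopper-Pearson intervals. FPKM were used as deposited, with a pseudocount of 1. The steps were tested on simulated data. Other pseudocounts, scalings and FPKM minimums were tried.

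The genes and lists were chosen with earlier results of these data known. Named genes were the 9, Neurod1, of each list past 5 FPKM the 2 with the largest difference and the 2 with the highest mean, the 3 nearest to Tmsb4x and set cell markers; 1 gene that the rule takes is not reported here. Of listed symbols, 3 had no row and 1 had several. Python 3.11.15, numpy 2.4.6, pandas 2.3.3, scipy 1.17.1, matplotlib 3.10.9 and blastn 2.17.0 were used.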

Additional observations from a re-analysis of the deposited data

How the results depend on the processing

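No paired analysis was possible because there was a single library of GFP and a single one of NeuroD1; for the same reason none could be left out. Scaling to the same sum of recovered reads, and every scaling of the summed 8 genes and of the marker sums, was chosen after seeing the data. Of protein-coding genes, 208 were 2-fold higher and 212 lower. A pseudocount of 5 gave 43 and 49. The counts were 105 and 331 with the same sum of FPKM, 543 and 795 with no filter, 13 and 5 at 20 FPKM, 25 and 8 at 5 FPKM in both libraries, and 1887 and 2295 for all genes, where filters change the counts by construction. They were 292 and 320 with a pseudocount of 0.1, and 119 and 286 with the same sum of recovered reads. Of the 9 genes, 8 were above 0 at first and 5 with the same sum of FPKM. With that scaling the medians of all 8 lists were below 0, against 2 of 8 at first: -0.03 for actin monomers, -0.16 for cofilin and severing, -0.26 for Arp2/3, -0.12 for nucleation promoters and formins, -0.15 for capping and bundling, -0.24 for myosin and linkers, -0.20 for intermediate filaments and -0.01 for the SRF axis. The same sum of recovered reads gave -0.10 for capping and bundling, with 6 of 8 below 0. The summed ratio of the 8 genes other than Tmsb4x was 1.10 (interval 0.982 to 1.23) with the same sum of recovered reads. The median of the 9 genes was above 0 under all settings run. Of 63 single-gene differences under other settings, 60 kept their side of the threshold and stayed within counting error. The 8 genes other than Tmsb4x differed by at most 0.72 as deposited, too far from the threshold for this count to check them. A change of pseudocount also leaves the ratios and their intervals as they were. The 3 that fell below the threshold were all of Tmsb4x: 0.93 with the same sum of FPKM, 0.99 with the same sum of recovered reads and 0.96 against genes of like level. Depth limits the ratios of genes such as Tmsb10 and Pfn1, with 58 and 55 reads over both libraries.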
